A study of Homo sapiens with 3 samples.

Results

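Genes that encode the nuclear pore and the receptors that carry cargo through it were examined in a PAR-CLIP of CTCF, the zinc-finger protein that shapes chromatin loops, in the human osteosarcoma cell line U2OS. In PAR-CLIP, cells incorporate 4-thiouridine into new RNA, ultraviolet light joins it to proteins in contact, and the RNA left on the precipitated protein is sequenced. Here 400 µM 4-thiouridine was given for 16 to 24 h before 365 nm light at 400 mJ/cm2, and CTCF was precipitated from nuclear lysate. Of the 3 labelled samples, 2 were biological replicates that differed in antibody lot and 1 was their merged sequencing data; only the merge had values used here. There was 1 condition, so no group could be set against another, and no value has a replicate error. Neither a control precipitation nor RNA abundance was analysed, so the counts cannot be read as a preference of CTCF for an RNA.

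Members were the protein-coding entries whose symbol is NUP, XPO, IPO or TNPO followed by a digit, begins with KPNA or KPNB, or is TPR, RANBP2 or CSE1L. The rule uses names and no measured value. It found 46 genes, of 17201 in the table and 12220 that are protein-coding. RefSeq annotates 49 protein-coding genes of these names. The other 3, IPO5, KPNA7 and NUP37, were not in the table, which starts at 6 counts, so they had fewer counts or were not counted. IPO5 and NUP37 encode an importin and a pore scaffold protein, and KPNA7 is an importin alpha known from oocytes and early embryos.

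The nuclear pore is a ring-shaped channel in the nuclear envelope. Its scaffold rings (the Y complex and the inner ring) hold the channel open, and proteins rich in phenylalanine-glycine repeats fill it. Filaments reach into the cytoplasm and a basket reaches into the nucleus. Importins bind cargo in the cytoplasm and release it in the nucleus when the small GTPase Ran, loaded with GTP, binds them. Exportins bind cargo together with Ran-GTP and release it in the cytoplasm, where the GTP is hydrolysed.

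The table's counts summed to 1322047 and ranged from 6 to 6801 per gene. Of 12 osteosarcoma and mesenchymal markers, 11 were listed, at 8 counts (ALPL) to 1277 (FN1) and 3741 counts in all. Of 12 markers of blood, epithelium, neurons and other cell types, 2 were listed, CDH1 with 13 counts and SYP with 11. The remaining 10, PTPRC, HBB and EPCAM among them, were not listed.

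Most pore and transport genes had more counts than other protein-coding genes, and 5 genes held 38.2% of the members' total. The members had a median of 152.5 counts per gene (quartiles 70.25 and 211.8), against 43 (quartiles 17 and 104) for all protein-coding genes listed. At least 100 counts were recorded for 32 of the 46 members (69.6%), where the background share of protein-coding genes was 26.1%. The members summed to 9851 counts, 0.864% of the protein-coding total. The 5 highest held 3766 of these: the receptors XPO1, KPNB1 and IPO7, the basket gene TPR and the filament gene RANBP2. Of the 46 members, 3 were among the 100 highest of the 12220 protein-coding genes and 9 among the 1000 highest. Since several symbols denote well-studied, broadly expressed genes, and their RNA levels were not analysed, the part of abundance in these counts was not tested.

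**Figure D1:**
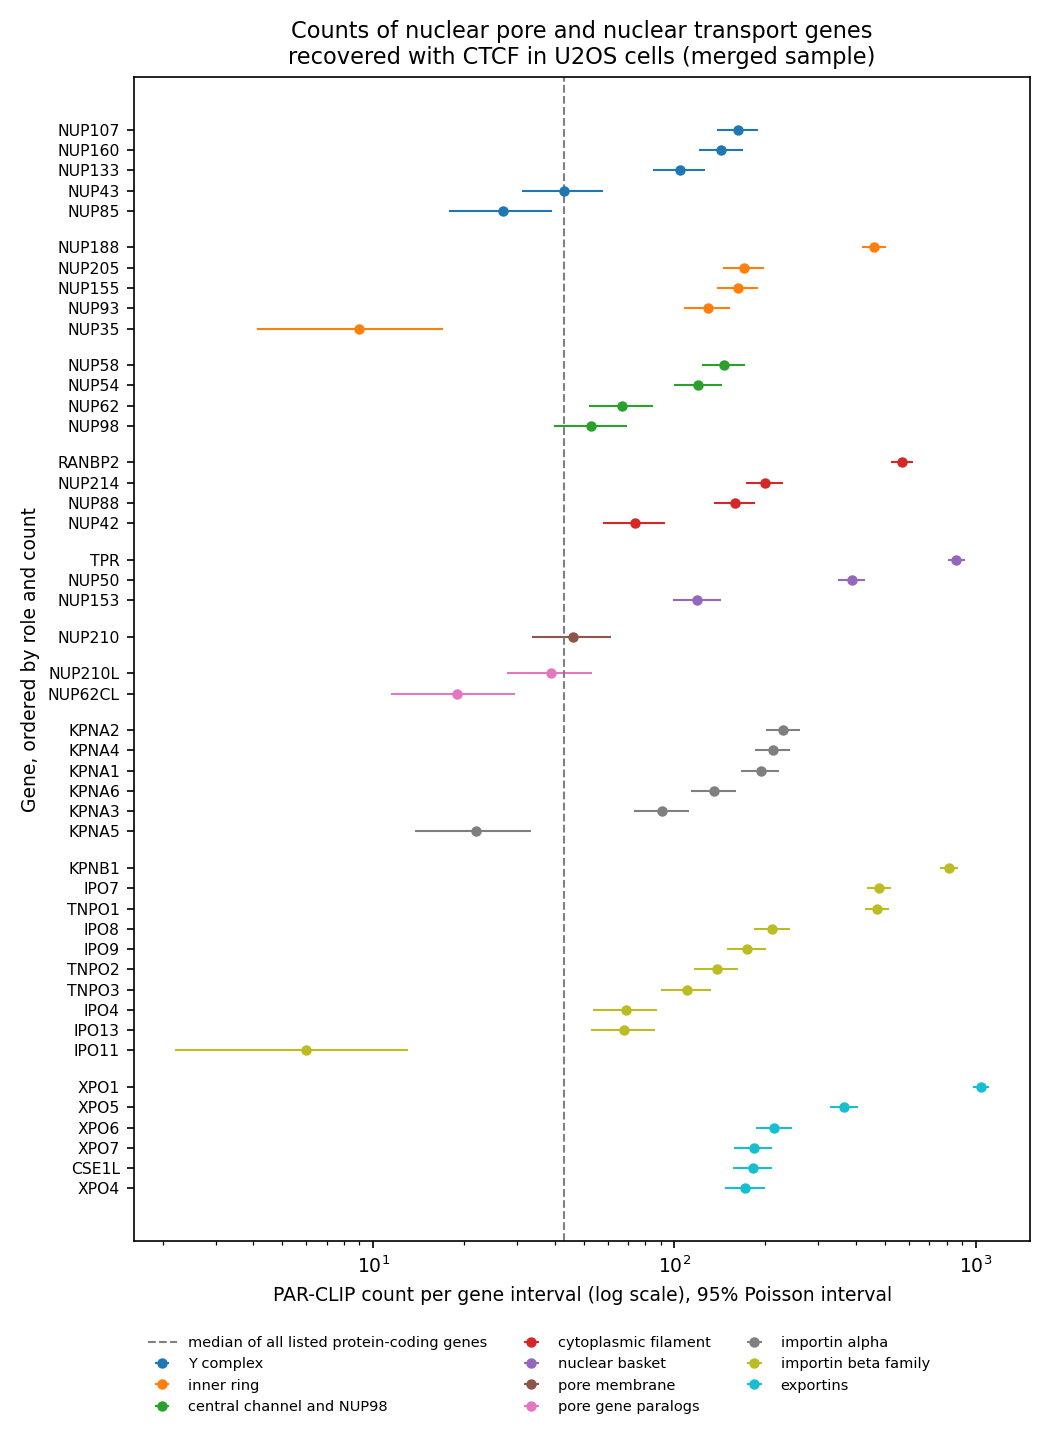
Counts of the 46 nuclear pore and nuclear transport genes in the merged sample, grouped by role, on a log axis; bars are exact 95% Poisson intervals and the dashed line is the median of all listed protein-coding genes. XPO1, TPR and KPNB1 lie farthest to the right at 1042, 863 and 813 counts, and NUP35 and IPO11 farthest to the left at 9 and 6.

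Counts were higher over longer intervals, and the members' intervals were longer than usual, with a median of 60.97 kb against 30.15 kb for all protein-coding genes. Counts were therefore also taken per kb, and divided by the median count of protein-coding genes of like length, using 50 equal length groups. Per kb, the members' median was 2.91 counts, against 1.54 for all protein-coding genes. The median member had 2.19 times the count of its length group, where the median over all protein-coding genes is 1.00. A count above that of the length group was found for 38 of 46 members (82.6%), beside a background of 49.4%. At 2 times the length group or more stood 25 members (54.35%), beside a background of 26.0%. Each member's ratio was also set against those of the protein-coding genes next to it on the chromosome. It exceeded both for 29 of 46 (63.0%), beside a background of 32.8%. Spearman's rho between count and length was 0.227 over the 46 members and 0.434 over the 12220 protein-coding genes, which share libraries and reads and are not replicates; the difference was not tested.

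**Figure D2:**
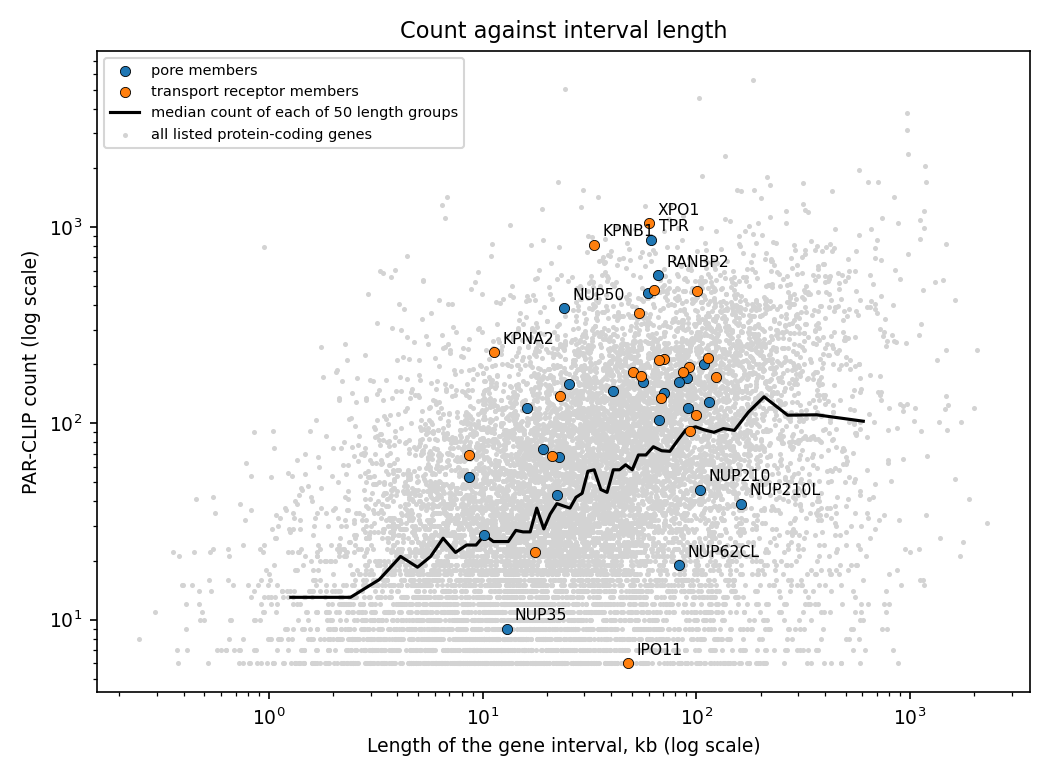
Count against interval length, both on log axes, for pore members, transport receptor members and all listed protein-coding genes, with the median count of each of 50 length groups as a line. Most members lie above the line; NUP210, NUP210L, NUP62CL, NUP35 and IPO11 lie below it.

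The nuclear basket, on the side of the pore that faces chromatin, had the highest median count among the pore's parts. TPR, the long coiled-coil protein that forms the basket's filaments, was recovered with 863 counts (95% Poisson interval 806 to 923). It lies on chromosome 1 (186282954 to 186344457, hg19, as all coordinates of counted genes here). The count is 14.0 counts per kb and 11.4 times its length group, and its interval overlapped no other listed gene. NUP50, which helps release cargo from importin alpha, had 387 counts (349 to 428) on chromosome 22 (45559722 to 45583892), 16.0 per kb and 10.2 times its length group. NUP153, which anchors the basket to the ring, stood apart from both. It had 119 counts (98.6 to 142) on chromosome 6 (17615269 to 17706618), 1.30 per kb and 1.29 times its length group. The intervals of the 3 basket genes did not overlap one another, and the median of the 3 was 387 counts.

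The cytoplasmic filaments were led by RANBP2, a giant Ran-binding protein with SUMO ligase activity. It had 569 counts (523 to 618) on chromosome 2 (109335937 to 109402267), 8.58 per kb and 7.85 times its length group. NUP214 and NUP88, which form a complex that docks XPO1, had 200 counts (173 to 230) and 159 (135 to 186). Per kb their order was the other way, with 6.29 for NUP88 and 1.83 for NUP214. NUP42, a docking site for the mRNA export factor GLE1, was lowest of the filament members with 74 counts (58.1 to 92.9), 3.86 per kb. All 4 filament members had at least 2 times the count of their length group, beside the background of 26.0%. With the counts of overlapping genes subtracted, NUP214 came to 1.52 times and NUP42 to 0, so the call was kept by RANBP2 and NUP88. The pore genes GLE1, AAAS and RAE1, outside the naming rule, had 1.26, 0.947 and 1.86 times the count of their length groups.

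In the inner ring, NUP188 stood out from its partners. NUP188, a large scaffold protein, had 460 counts (419 to 504) on chromosome 9 (131709978 to 131769375), 7.74 per kb and 6.67 times its length group. Its structural relative NUP205 had 170 (145 to 198) at 1.87 per kb, NUP155 had 162 (138 to 189) at 1.95, and NUP93, the hub of the inner ring, had 129 (108 to 153) at 1.13. These 3 had overlapping intervals and 1.39 to 1.96 times the count of their length groups. NUP35, which binds the pore membrane, had 9 counts (4.12 to 17.1) on chromosome 2 (183982241 to 183995215), 0.694 per kb and 0.360 times its length group. The NUP35 interval was 12.97 kb long and need not cover the whole gene. The next listed gene began 477 kb beyond it.

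The Y complex, which builds the outer rings, had lower and more even counts than the inner ring, with a median of 104 against 162. Per kb its median was higher, at 2.03 against 1.87, over shorter intervals. NUP107 had 163 counts (139 to 190), NUP160 143 (121 to 169) and NUP133 104 (85.0 to 126). Per kb these were 2.90, 2.03 and 1.55. NUP43 had 43 (31.1 to 57.9) and NUP85 27 (17.8 to 39.3), both over short intervals, at 1.93 and 2.67 per kb. NUP107 alone of the 5 (20.0%) reached 2 times its length group, at 2.36, beside the background of 26.0%. It came to 1.78 with the 40 counts of KRT8P39, a pseudogene inside its interval, subtracted.

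The repeat proteins of the channel had moderate counts over short intervals. NUP58 had 146 counts (123 to 172), NUP54 120 (99.5 to 143) and NUP62 67 (51.9 to 85.1). These 3 form the channel's central trimer, and per kb they had 3.57, 7.41 and 2.92. NUP98, made as a precursor that also yields the Y-complex protein Nup96, had 53 counts (39.7 to 69.3) on chromosome 11 (3692313 to 3700917), or 6.16 per kb. The NUP98 interval was only 8.605 kb long, and the next listed gene, PGAP2, began 118 kb beyond it, so the count covers that interval and need not cover the whole gene.

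NUP210, a membrane glycoprotein of the pore, and the paralogs NUP210L and NUP62CL were low. NUP210 had 46 counts (33.7 to 61.4) over 104.1 kb, NUP210L 39 (27.7 to 53.3) over 162.4 kb and NUP62CL 19 (11.4 to 29.7) over 83.01 kb. At 0.442, 0.240 and 0.229 per kb, they had 0.479, 0.342 and 0.230 times the count of their length groups.

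Among the transport receptors, the 6 exportin members had 172 to 1042 counts, over intervals of differing length. The receptors XPOT and RANBP17, outside the naming rule, had 113 and 22. XPO1, also called CRM1, which exports proteins with leucine-rich signals and several kinds of RNA, had the highest count of all members. It had 1042 counts (980 to 1107) on chromosome 2 (61704984 to 61765418), 17.2 per kb and 13.7 times its length group, and ranked 48th among protein-coding genes. XPO5, the exporter of microRNA precursors, followed with 366 (330 to 406) on chromosome 6 (43490072 to 43543812), 6.81 per kb. XPO6, an exporter of actin, had 214 (186 to 245), XPO7 183 (157 to 212), CSE1L, which returns importin alpha to the cytoplasm, 182 (157 to 210), and XPO4 172 (147 to 200). The intervals of these 4 overlapped, so their order was not resolved by counting error alone. Per kb CSE1L led them with 3.59, and the other 3 had 1.39 to 2.11. XPO4, at 1.39 per kb, was below the protein-coding median of 1.54, and XPO4 and XPO7 had 1.91 and 1.98 times the count of their length groups.

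The importin beta family ranged from the highest count per kb of all members to the lowest count. KPNB1, importin beta 1, which carries cargo bound to importin alpha, had 813 counts (758 to 871) on chromosome 17 (45726842 to 45759999), 24.5 per kb and 14.0 times its length group. IPO7, an importer of ribosomal proteins and linker histone, had 479 (437 to 524) at 7.54 per kb, and TNPO1, transportin, the receptor of hnRNP A1, had 470 (429 to 515) at 4.68. Their intervals overlapped each other and lay below that of KPNB1. IPO8 had 211 counts, IPO9, an importer of histones, 174, TNPO2 138 and TNPO3, the importer of splicing factors with serine-arginine repeats, 110. IPO4 and IPO13 had 69 and 68. IPO11 had 6 counts (2.20 to 13.1), the floor of the table, on chromosome 5 (61699799 to 61747690). That was 0.125 per kb and 0.0976 times its length group, and no listed gene began within 1714 kb beyond the interval's end.

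The importins alpha, the adaptors that recognise classical nuclear localisation signals, had 22 to 230 counts. KPNA2 had 230 (201 to 262) on chromosome 17 (66031635 to 66042958) over only 11.32 kb, which gave 20.3 per kb and 9.20 times its length group. KPNA4 had 212, KPNA1 193 and KPNA6 135, at 3.00, 2.08 and 1.97 per kb. KPNA3 had 91 (73.3 to 112), 0.984 times its length group, and KPNA5 had 22 (13.8 to 33.3), 0.595 times. The KPNA5 interval was 17.61 kb long and need not cover the whole gene. The next listed gene began 589.5 kb beyond it. By role, the median count was 198.5 for the 6 exportins, 164 for the 6 importins alpha and 156 for the 10 importin beta family receptors. It was 182.5 over all 22 receptors, against 124.5 over the 24 pore genes, and per kb 3.15 against 2.35. The ranges of receptors (6 to 1042) and pore genes (9 to 863) covered nearly the same span.

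The 8 members without a count above their length group were IPO11, NUP62CL, NUP210L, NUP35, NUP210, KPNA5, KPNA3 and NUP85, and NUP85 equalled it at 27 counts. They span 6 to 91 counts and come from 6 of the roles, with no exportin, channel, filament or basket member among them. That absence depends on overlaps and on the naming rule. With the counts of overlapping genes subtracted, the channel gene NUP62 came to 0.513 times its length group. The filament gene NUP42, IPO4 and IPO9 came to 0. ZC3HC1, a pore gene outside the naming rule, had 34 counts, 0.586 times its length group.

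The promoters of these genes were examined for the DNA sequence that CTCF is known to recognise, although the counts measure RNA over whole genes and not binding at promoters. RefSeq windows (GRCh38.p14) were found for 41 of 46 members, and the 250 bases before each start were searched on both strands. AGGGGGC, the core of the CTCF motif, stood upstream of 8 of the 41 members (19.5%), against 23.3% of the 9568 listed protein-coding genes with a window. Counted by window, since a gene can have several starts, it stood in 17.0% of the members' windows, 17.6% of those of listed protein-coding genes and 13.3% of all windows of the table. Members with the core had a median of 172 counts (110 to 1042), and the 33 without it had 135 (6 to 863); the ranges overlapped. The outermost XPO1 window and that of CSE1L are shown, for the exportin with the highest count and for one with the core; capitals mark the core on the opposite strand. The XPO1 window (chr2:61538357-61538606, minus strand) does not hold it, and its core lies before another, inner start. That of CSE1L (chr20:49046062-49046311, plus strand) holds the core, which begins 49 bases before the start.
XPO1: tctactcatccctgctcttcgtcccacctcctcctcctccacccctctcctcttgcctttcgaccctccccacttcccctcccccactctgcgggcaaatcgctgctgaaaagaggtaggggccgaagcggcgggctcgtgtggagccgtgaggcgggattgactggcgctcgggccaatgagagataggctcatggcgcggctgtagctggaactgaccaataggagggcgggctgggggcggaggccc
CSE1L: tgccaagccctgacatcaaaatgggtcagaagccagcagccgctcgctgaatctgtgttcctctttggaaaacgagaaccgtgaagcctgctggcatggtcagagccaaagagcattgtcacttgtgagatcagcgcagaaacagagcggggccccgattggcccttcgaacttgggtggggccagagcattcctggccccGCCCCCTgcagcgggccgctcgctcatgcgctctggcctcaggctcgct

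Related receptors and related pore genes were set side by side in 10 of 12 pairs in which both genes were listed, per kb because interval lengths differ, with intervals that cover counting error only. In the first 6 pairs described, the interval of the ratio lay wholly on one side of 1. KPNA4 had 3.09 times the count per kb of KPNA3 (2.41 to 3.99), its closest relative. IPO7 had 2.40 times that of IPO8 (2.03 to 2.83), with 7.54 against 3.15 per kb. XPO7 had 4.74 times that of RANBP17 (3.04 to 7.75), a related receptor outside the naming rule with 22 counts. NUP62 had 12.8 times that of NUP62CL (7.58 to 22.5), before any correction for overlap. With the counts of overlapping genes subtracted, NUP62 kept 20 of its 67 counts, so that ratio is uncertain beyond its interval. NUP210 had 1.84 times that of NUP210L (1.18 to 2.90). NUP205 had 0.242 times that of NUP188 (0.202 to 0.289).

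The other 4 pairs were closer, or their order depended on length. For TNPO1 with TNPO2 and KPNA1 with KPNA5 the interval also excluded an equal count per kb. TNPO1 had 470 counts and TNPO2 138, but per kb TNPO1 had 0.785 times that of TNPO2 (0.648 to 0.956). KPNA6 and KPNA1 were not told apart per kb, at a ratio of 0.949 (0.756 to 1.19). KPNA1 had 1.66 times that of KPNA5 (1.07 to 2.71) and KPNA6 1.58 times that of KPNA5 (1.00 to 2.60). Both ratios rest on the KPNA5 interval, which need not cover the whole gene.

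Copies of some members were listed with counts of their own. The RGPD genes on chromosome 2, which arose by duplication of RANBP2, numbered 7 in the table. They had 9 counts (RGPD6) to 167 (RGPD5) and 533 in all, so that of the 1102 counts of RANBP2 and its copies, 48.4% (95% Clopper-Pearson interval 45.4 to 51.4%) stood on the copies. Per kb, RANBP2 had 8.58, RGPD5 4.15 and the other 6 between 0.520 and 1.28. Pseudogenes named after a member were listed for 5 receptors. For KPNA2, 3 pseudogenes held 112 counts beside 230 on the gene, or 32.7% (27.8 to 38.0%), of which KPNA2P3 had 94. For TNPO1, 3 pseudogenes held 107 counts beside 470. TNPO1P1 had 30 over 1.138 kb (26.4 per kb) and TNPO1P3 54 over 2.662 kb (20.3 per kb), against 4.68 per kb for TNPO1. IPO8P1 had 47 counts beside 211 for IPO8, IPO7P2 29 beside 479 for IPO7, and KPNA4P1 6 beside 212 for KPNA4. Per kb these copies also stood above their genes, at 15.1 against 3.15, 16.6 against 7.54 and 3.56 against 3.00. The value of KPNA4P1 rests on only 6 counts. The KPNA2 pseudogenes, at 4.03 to 10.8 per kb, stood below KPNA2 at 20.3. IPO5 itself was not listed, and its pseudogene IPO5P1 had 6 counts. How the authors placed reads that match both a gene and its copy is not given, so the counts of these genes and copies are uncertain, by an amount that cannot be read from the table. Over the 40 members without a listed copy, the median was 136.5 counts, 1.98 times the length group.

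**Figure D3:**
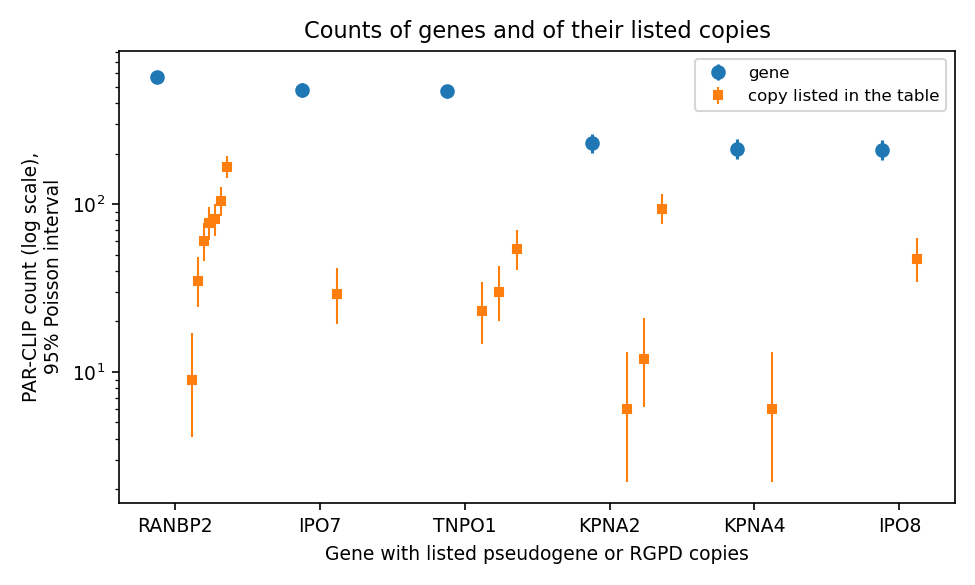
Counts of the 6 members with listed copies (circles) and of each copy (squares), on a log axis with exact 95% Poisson intervals. By count, though not always per kb, every gene lies above each of its copies. The RGPD copies of RANBP2 reach 167 counts and KPNA2P3 reaches 94.

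Another listed gene overlapped 17 of the 46 members (37.0%), beside 34.7% of all protein-coding genes, and a read in such a place can enter both counts. For the highest members the partners were small. USP34-DT, with 53 counts, overlaps the end of XPO1, which keeps 989 if all 53 are taken away. KPNB1 keeps 783 without the 30 of an unnamed antisense gene, IPO7 keeps 435 of 479, NUP188 404 of 460 and XPO5 353 of 366. KPNA4 keeps 200 without SCARNA7, a small Cajal body RNA inside its interval, NUP88 151 of 159, TNPO3 104 of 110 and NUP98 45 of 53. For NUP107, NUP160, NUP214 and KPNA6, 123, 128, 141 and 75 counts are left in the same way.

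For other members the partners' counts were a large part of the member's own, or exceeded it. IPO4 (69 counts) lies almost wholly, 98.0% of its interval, within a protein-coding entry without a symbol that had 82. NUP42 (74) shares 68.1% of its interval with another such entry of 77, and NUP62 (67) shares 88.3% with one of 40 and part with ATF5 (7). IPO9 (174) shares 419 bases, 0.760% of its interval, with IPO9-AS1 (188). With every partner's count subtracted from the members, and the length groups left as they were, 34 of 46 members (73.9%) were above their length group, beside the background of 49.4%, and the median was 133.5 counts. The divergent transcripts KPNB1-DT (40 counts) and NUP50-DT (15) lie beside KPNB1 and NUP50 without overlap, at 0.878 and 0.501 per kb.

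Pore and transport genes outside the naming rule had lower median counts than the members. Of 11 further pore genes, 10 were listed with a median of 67 counts, 1.33 times the length group. At 2 times the length group or more stood 3 of the 10 (30.0%), beside the background of 26.0%. At least 100 counts were recorded for 4 of the 10 (40.0%), beside the background of 26.1%. AHCTF1, which brings the Y complex to chromatin, had 227 counts (3.29 times its length group), POM121, a membrane pore protein, 185 and TMEM33 114. The lowest were AAAS with 27, the Y-complex gene SEC13 with 26 and SEH1L with 12 (0.500 times). POM121C, a near-identical copy of POM121, was not listed. Of 3 further receptors, XPOT, the exporter of tRNA, had 113, RANBP6 53 and RANBP17 22. All 10 genes of the Ran cycle and its adaptors were listed, with a median of 45 counts, 1.48 times the length group. RANGAP1, which activates hydrolysis of GTP by Ran, had 219 counts, RCC1, the exchange factor on chromatin, 179 and RANBP3 144. RAN itself had 99 over 5.80 kb, or 17.1 per kb, beside 17.2 for XPO1. For their lengths RAN was lower, at 4.71 times its length group against 13.7 for XPO1. The lowest were HIKESHI, the importer of HSP70, with 30, the ribosome export adaptor NMD3 with 23 and the import adaptor SNUPN with 22. Of 22 mRNA export genes, 20 were listed with a median of 72.5 counts over short intervals, 2.28 times the length group. Another listed gene overlapped 14 of these 20 (70.0%), against 37.0% of the members, and their counts were not corrected for it. ZC3H11A had 242, NXF1, the main mRNA export receptor, 174, and DDX19A and PCID2 172 each. ALYREF had 30, THOC6 29 and NXT1 23, while NXT2 and SEM1 were not listed. The members' median of 2.19 times the length group thus lay between those of the Ran cycle and mRNA export lists.

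The members were also set beside nuclear lamina and envelope genes and translation factor genes. Among these lists the members had the highest median count but not the highest count for their length. The 19 nuclear lamina and envelope genes had a median of 67 counts, 3.23 per kb and 2.41 times the length group, and 12 of the 19 (63.2%) exceeded their length group. The 38 translation initiation and elongation factor genes had 136 counts, 8.61 per kb and 4.50 times, and 34 of 38 (89.5%) exceeded it. Pore and transport genes had 152.5 counts, 2.91 per kb and 2.19 times, with 82.6% above. The members' median interval of 60.97 kb was longer than the 34.87 kb of lamina and envelope genes and the 17.77 kb of translation factor genes. These are descriptions of single values per gene, and no difference between lists was tested.

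**Figure D4:**
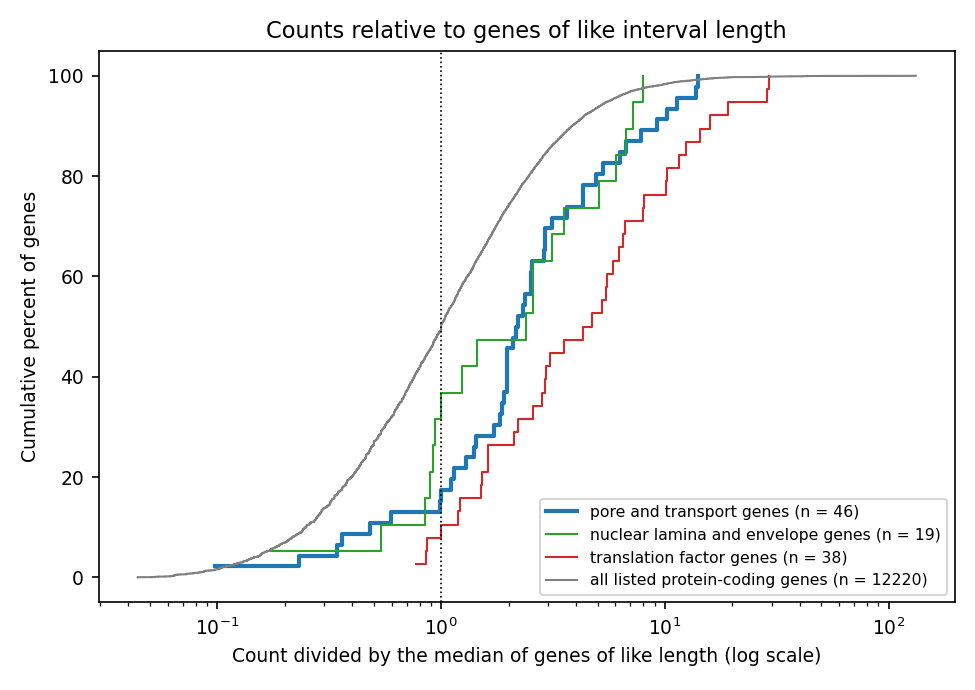
Cumulative percent of genes by count divided by the median of genes of like length, on a log axis. Curves show pore and transport genes, nuclear lamina and envelope genes, translation factor genes and all listed protein-coding genes. The dotted line marks 1. Over most of its range the members' curve lies to the right of all genes (medians 2.19 and 1.00) and to the left of translation factors (median 4.50).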

How the data were processed

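PAR-CLIP counts were analysed for the merged sample of 2 biological replicates. The authors deposited whole-number counts per Ensembl gene interval, not scaled for depth or length, with 17201 genes of 6 counts or more. The submitters' processing notes name build hg19, Bowtie and bedtools. What their versions and roles were, how multiply mapped reads were treated and whether strand was used was not given in the sources used here. Identifiers were paired with symbols for 16520 genes; 681 had none. Counts carry exact 95% Poisson intervals and shares exact 95% Clopper-Pearson intervals, which cover counting error only, since reads amplified by PCR are not independent molecules. Length groups were 50 equal groups of protein-coding genes by interval length. The calculation of the ratio was checked on counts simulated around the length group medians. That simulation held no overlaps, copies or count floor, so it cannot show how these affect the ratio. Counts per kb use the table's intervals, which need not span whole genes. No p-value was computed. Members, lists, pairs and motifs were chosen with earlier results of these data known. Genes named are the highest and lowest of each role and measure, those that overlap another gene, both genes of each pair, and the 3 highest and lowest of other lists. Python 3.11.15, pandas 2.3.3, NumPy 2.4.6 and SciPy 1.17.1 were used.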

Additional observations from a re-analysis of the deposited data

How the results depend on the processing

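Those alternatives that concern listed copies, and those that subtract overlapping genes, were added after the data had been seen. The median count of the members ranged from 133.5 to 160.5, that per kb from 1.95 to 2.96 and the ratio to the length group from 1.89 to 2.24, and each stayed above its protein-coding background in every alternative run. Per kb the lowest value came without genes that overlap another listed gene, at 1.95 for the members against 1.45 for all such protein-coding genes. In that setting 29 members were left, so fewer could pass: 19 (65.5%) had at least 100 counts and 23 (79.3%) exceeded their length group, beside 23.6% and 49.2% of the protein-coding genes without overlap. With all genes of the table as background, the background median was 31 in place of 43 counts. Including older symbols gave 49 members in place of 46, and a minimum of 10 counts left 44. Counted per kb in place of per gene, the share of the first gene moved beyond its counting interval in 8 of 10 pairs, because interval lengths differ. For KPNA4 with KPNA3 it came to 75.5%, for KPNA1 with KPNA5 62.4%, for KPNA6 with KPNA5 61.2%, for KPNA6 with KPNA1 48.7%, for TNPO1 with TNPO2 44.0%, for XPO7 with RANBP17 82.6%, for NUP62 with NUP62CL 92.7% and for NUP205 with NUP188 19.5%. Leave-one-out values could not be had from a merge of both replicates. No paired analysis was possible because replicate values were not analysed here. Depth limits IPO11 and NUP35, whose counts of 6 and 9 have wide intervals.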
